A study of Mus musculus with 4 samples.

Results

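Interferon-stimulated genes are genes whose transcription is raised by interferons, the cytokines of antiviral defence. The 50 genes described here were taken from a list of named symbols, and each was found at 1 locus among the 23699 gene entries of the deposited table. RNA was measured in 2 subsets of splenic B cells from C57BL/6 mice. Both subsets were gated as B cells. The sort took B10+ cells as Cd1d high, Cd5 positive and Il10 positive, Il10 being the cytokine of regulatory B cells, and B10- cells as negative for Cd1d, Cd5 and Il10. All cells were kept for 48 h with an antibody against Cd40, a receptor for T cell help, and received lipopolysaccharide (LPS, a bacterial ligand of Toll-like receptor 4), PMA and ionomycin for the last 5 h. The 2 cultures each yielded a B10+ and a B10- library, so n = 2 per subset and libraries pair by culture. The labels name no added interferon, and all 4 libraries are from stimulated cells.

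Type I interferons (the Ifna genes and Ifnb1) and interferon gamma (Ifng) act through surface receptors, the JAK kinases and transcription factors of the STAT family. Type I interferons assemble STAT proteins and Irf9 into a complex that binds the interferon-stimulated response element, a DNA site with repeated GAAA. Interferon gamma leads to a STAT dimer that binds the gamma-activated site, a palindrome of TTC and GAA. B cells stimulated through Toll-like receptors can make type I interferon and respond to it.

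Values are FPKM, numbers of fragments divided by transcript length and by library size. Read depth is unknown, and no counting interval can be given. Differences are of log2(FPKM + 1), B10+ minus B10-, with the SD over the 2 cultures. This scale understates the differences of genes with low values. All 50 genes passed the filter of at least 1 FPKM in at least 2 libraries, as did 10367 entries in all, and 48 of the 50 reached 1 FPKM in all 4 libraries. The p-values are from limma over all 10367 entries, adjusted by the Benjamini-Hochberg method, with 0.05 as the threshold. They are given with the culture as a term in the model (the replicate block) unless stated otherwise.

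The B cell identity of the libraries was checked on 7 B cell genes, whose summed level was 487.5 and 332.7 FPKM in B10+ cells and 546.4 and 293.5 FPKM in B10- cells (culture 1, then culture 2, here and below). Single genes of that list varied widely. In both cultures 3 were higher and 2 lower in B10+ cells, against 33.4% and 31.8% of all entries. The 2 lower ones were Ebf1 and Cd22. Ebf1 had 24.1 and 100.2 FPKM in B10+ cells and 40.3 and 123.8 FPKM in B10- cells. Cd22 had 16.5 and 9.47 FPKM in B10+ cells and 36.5 and 11.8 FPKM in B10- cells. Cd79b, a chain of the B cell receptor, had 116.4 and 11.5 FPKM in B10+ cells and 104.9 and 2.34 FPKM in B10- cells, and its partner Cd79a had 25.9 and 31.4 FPKM in B10+ cells and 20.8 and 8.04 FPKM in B10- cells. The T cell genes Cd3e, Cd3g, Cd4, Cd8b1 and Themis had values above 0 in both B10+ libraries, with Cd8b1 highest at 3.23 FPKM, and were listed at 0 in both B10- libraries. Cd3d, Thy1 and Zap70 were also higher in B10+ cells in both cultures, but were not at 0 in both B10- libraries. Cd8a had opposite signs, at 0.067 and 0 FPKM in B10+ cells and 0.026 and 0.039 FPKM in B10- cells. Over the 11 listed T cell genes the summed level was 32.1 and 23.4 FPKM in B10+ cells and 15.5 and 6.59 FPKM in B10- cells, most of it from Cd2 and Lck, and 1 gene (Cd2) of the 2 tested was higher in both cultures. For 12 macrophage genes the sums were 8.66 and 7.69 FPKM in B10+ cells against 8.47 and 4.79 FPKM in B10- cells, with Cd68 as the largest part and Lyz1 at 0 in all 4 libraries. Emr1 of that list had 2.58 and 2.548 FPKM in B10+ cells and 0.837 and 0.220 FPKM in B10- cells. Both B10+ libraries lay above both B10- libraries, as for 6.6% of all entries. Emr1 reached 1 FPKM only in B10+ libraries and so passed the filter through that subset. Cd68 had opposite signs, at 5.72 and 4.38 FPKM in B10+ cells and 7.55 and 3.46 FPKM in B10- cells. Csf1r and Lyz2, below 1 FPKM in every library, were lower in B10+ cells of culture 2. For 7 natural killer cell genes the sums stayed between 0.286 and 0.769 FPKM, with Ncr1 at 0. Siglech, a defining gene of plasmacytoid dendritic cells, which make much type I interferon, was at 0.0147 FPKM or less in every library. The 7 listed genes of that cell type, of which Bst2, Ly6d and Tcf4 are also known from activated B cells, summed to 532 and 283 FPKM in B10+ cells and 412 and 338 FPKM in B10- cells. Pacsin1 of that list was higher in B10+ cells in both cultures, at 1.66 and 3.98 FPKM against 1.58 and 1.29 FPKM in B10- cells. Ccr9 had opposite signs, at 2.12 and 0.974 FPKM in B10+ cells and 0.365 and 1.39 FPKM in B10- cells. Of 6 neutrophil genes none reached 0.1 FPKM in any library. The 6 erythroid genes summed to 37.0 and 48.2 FPKM in B10+ cells and 43.1 and 86.6 FPKM in B10- cells, nearly all of it haemoglobin RNA. Hbb-b1 was lower in B10+ cells in both cultures, at 28.9 and 43.7 FPKM against 39.4 and 80.8 FPKM in B10- cells. Hbb-b2 had opposite signs, at 7.76 and 3.53 FPKM in B10+ cells and 3.32 and 4.76 FPKM in B10- cells. The part of other cell types in the differences below was not tested. In such bulk libraries, fewer cells of a type and less RNA per cell cannot be told apart.

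Promoter sequences are shown because interferon signals act through DNA sites of this kind. RefSeq promoter windows (GRCm38.p6, 250 bases before to 50 bases after an annotated start) matched 39 of the 50 genes by symbol, in 47 windows. The letters GAAANNGAAA, on either strand, stand for the core of the interferon-stimulated response element, and TTCNNNGAA, a palindrome, for the gamma-activated site. A match describes letters only and does not show a bound site. GAAANNGAAA was present for 20 of the 39 genes (51.3%), against 3.99% of all 27025 genes with a window and 3.44% of all 32851 windows. TTCNNNGAA was present for 9 of the 39 (23.1%), against 9.55% of all genes and 8.30% of all windows. Both motifs were found for 5 genes, among them the neighbouring GTPase genes Irgm2 and Igtp.

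Stretches from 160 bases before to 30 bases after the start are shown for 4 genes that were higher in B10+ cells in both cultures, read 5′ to 3′ on the strand of the gene, with the motif letters in capitals.
Ifit1, chr19:34640729-34640918, plus strand: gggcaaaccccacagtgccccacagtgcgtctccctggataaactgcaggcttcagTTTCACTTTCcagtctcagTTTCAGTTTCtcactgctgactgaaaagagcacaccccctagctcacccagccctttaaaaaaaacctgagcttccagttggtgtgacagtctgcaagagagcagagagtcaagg
Ifit3, chr19:34583369-34583558, plus strand: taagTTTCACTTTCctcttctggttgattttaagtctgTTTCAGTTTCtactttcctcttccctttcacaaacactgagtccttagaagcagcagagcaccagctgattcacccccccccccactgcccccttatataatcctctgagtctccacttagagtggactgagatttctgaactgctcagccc
Isg15, chr4:156200789-156200978, minus strand: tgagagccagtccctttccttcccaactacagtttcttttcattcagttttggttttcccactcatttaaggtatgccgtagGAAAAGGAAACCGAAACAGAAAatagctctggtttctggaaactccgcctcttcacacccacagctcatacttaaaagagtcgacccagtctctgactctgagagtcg
Gbp3, chr3:142559884-142560073, plus strand: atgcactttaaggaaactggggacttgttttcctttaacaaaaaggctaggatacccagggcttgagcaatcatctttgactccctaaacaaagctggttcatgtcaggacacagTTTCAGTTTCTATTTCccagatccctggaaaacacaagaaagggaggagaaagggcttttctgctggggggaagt
In Ifit1 the motif begins 104 and 85 bases before the start, and in Ifit3 156 and 122 bases before it, with the same letters in both genes, TTTCACTTTC followed by TTTCAGTTTC, on the other strand. Isg15 holds 3 copies that overlap in a single run, the first of them 78 bases before the start.

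The same stretch is shown for the 3 Ifitm genes and for Irf1, which were lower in B10+ cells in both cultures.
Ifitm1, chr7:140967916-140968105, plus strand: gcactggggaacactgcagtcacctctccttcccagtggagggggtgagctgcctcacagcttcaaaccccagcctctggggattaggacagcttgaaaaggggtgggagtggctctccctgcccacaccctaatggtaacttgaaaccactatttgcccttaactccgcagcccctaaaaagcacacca
Ifitm2, chr7:140955932-140956121, minus strand: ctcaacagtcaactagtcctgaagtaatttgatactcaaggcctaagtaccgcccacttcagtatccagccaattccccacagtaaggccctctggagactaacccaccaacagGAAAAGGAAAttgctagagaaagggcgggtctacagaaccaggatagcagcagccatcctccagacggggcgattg
Ifitm3, chr7:141010715-141010904, minus strand: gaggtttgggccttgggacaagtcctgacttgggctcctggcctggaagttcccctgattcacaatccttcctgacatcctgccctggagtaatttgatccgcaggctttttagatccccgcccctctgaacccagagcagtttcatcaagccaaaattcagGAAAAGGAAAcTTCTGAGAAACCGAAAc
Irf1, chr11:53769854-53770043, plus strand: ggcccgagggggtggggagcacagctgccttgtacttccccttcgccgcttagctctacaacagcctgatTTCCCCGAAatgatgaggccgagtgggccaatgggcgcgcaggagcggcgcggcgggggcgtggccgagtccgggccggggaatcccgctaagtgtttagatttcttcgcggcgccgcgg
Ifitm2 holds GAAANNGAAA 46 bases before its start. Ifitm3 holds it just after its start, with a TTCNNNGAA match that overlaps the second copy. Ifitm1 has neither set of letters in this window, and Irf1 holds TTCNNNGAA 90 bases before its start. Of the 20 genes with GAAANNGAAA, 14 were higher and 3 lower in B10+ cells in both cultures, and their median log2 difference was 0.34. Of the 19 without it 9 were higher and 3 lower, with a median of 0.24. Over all tested entries, 33.4% were higher and 31.8% lower in both cultures. The split by motif was not tested, and it leaves out the 11 genes without a window.

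In B10+ cells the interferon-stimulated genes as a list lay slightly above B10- cells, and a few genes stood apart in either direction. The Ifit RNA-binding proteins Ifit1 and Ifit3, the nucleotide kinase Cmpk2 and the GTPase Gbp3 had the largest positive differences among genes with the same sign in both cultures. The 3 Ifitm membrane proteins, Oas2 and the transcription factor Irf1 had the largest negative ones. A single gene, Ifitm2, passed the threshold with the culture in the model, and it fell, while none passed without that term. Higher in both cultures were 27 of the 50 genes (54.0%), against 33.4% of all tested entries. Lower in both were 9 (18.0%), against 31.8% of all tested entries, and 14 had mixed signs. The median log2 difference over the 50 genes was 0.25, with 0.19 in each culture, and over all entries it was 0.00. With a library left out, the difference between the cultures enters the median by construction. The median was then 0.71 without B10+ replicate 1, -0.41 without B10+ replicate 2, -0.46 without B10- replicate 1 and 0.81 without B10- replicate 2.

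**Figure D1:**
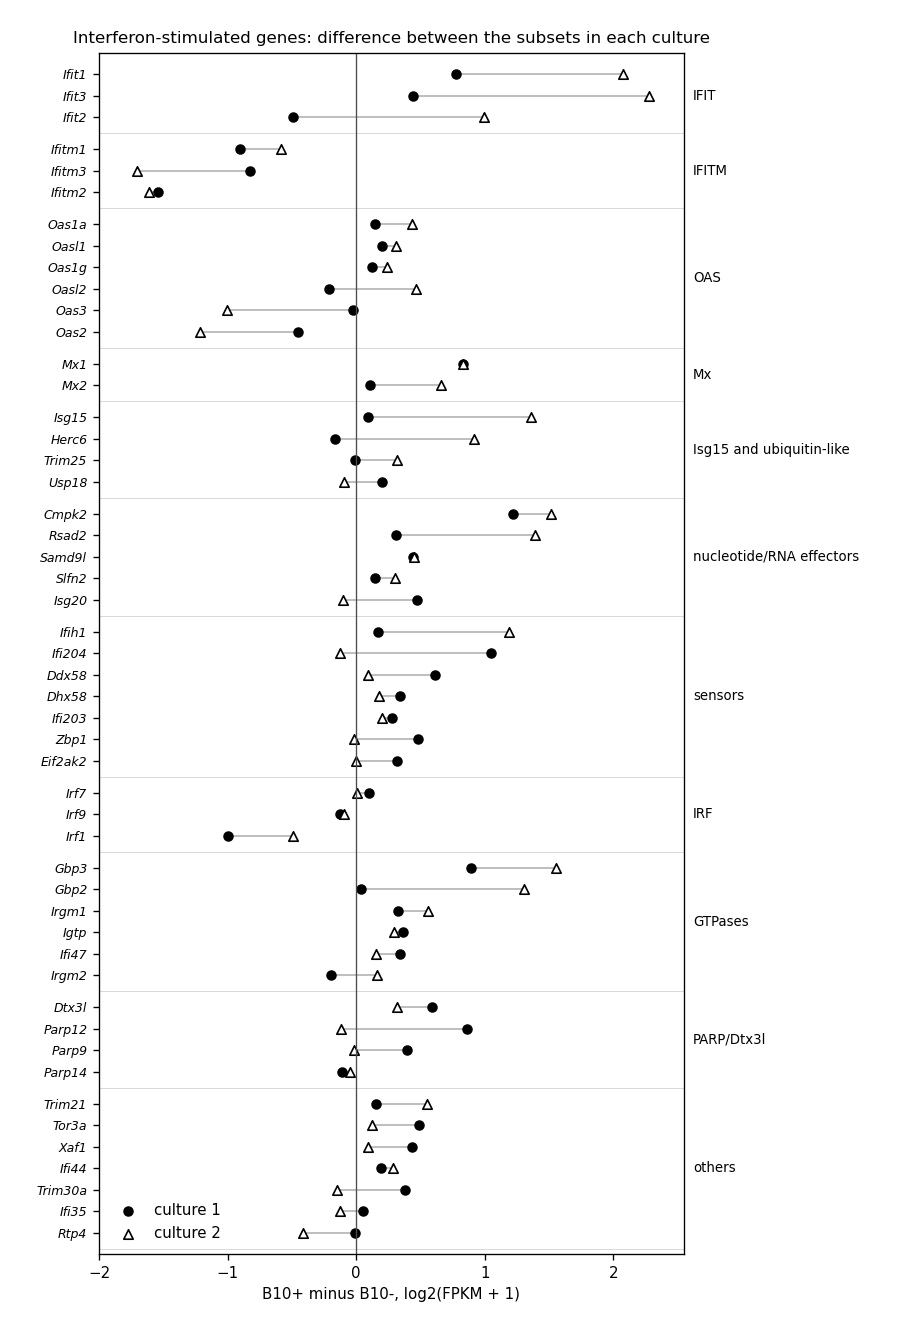
B10+ minus B10- difference of log2(FPKM + 1) for the 50 interferon-stimulated genes, by role, with filled circles for culture 1 and open triangles for culture 2 and a grey line joining them. All 3 Ifitm genes lie below 0 in both cultures, while Ifit1, Ifit3, Cmpk2, Mx1 and Gbp3 lie above 0 in both.

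With the culture in the model, 0 of the 50 genes were called higher, against 0.781% of all entries, and 1 was called lower, against 0.0772%. Without it, limma called 0 entries in either direction over the whole table and therefore 0 of the 50 genes. At an unadjusted p under 0.05 the fit without the culture held 1 of the 50 genes, Ifitm2, among 109 higher entries (1.05%) and 9 lower entries (0.0868%). The fit with the culture held 9 higher genes (18.0%), against 10.5% of all entries, and 5 lower genes (10%), against 4.66%. The 9 were Ifit1, Ifit3, Mx1, Rsad2, Cmpk2, Samd9l, Gbp3, Irgm1 and Dtx3l, and the 5 were Ifitm1, Ifitm2, Ifitm3, Oas2 and Irf1. A difference that missed the threshold is not shown to be absent, since that fit leaves 1 residual degree of freedom.

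The Ifitm proteins sit in cell membranes and hinder the entry of enveloped viruses. Ifitm2 (chromosome 7, 148140738 to 148141860, mm9) had 17.8 and 18.2 FPKM in B10+ cells, against 53.8 and 57.8 FPKM in B10- cells. Both B10+ libraries lay below both B10- libraries, which held for no other gene of the 50 (7.47% of all entries). The ratio was 0.331 in culture 1 and 0.316 in culture 2. Its log2 difference of -1.58 ± 0.05 (SD over 2 cultures) ranked as the 21st lowest of all tested entries. The adjusted p from limma was 0.0384 with the replicate block. Without the block the limma adjusted p was 0.99999 and the unadjusted limma p 0.0091. Leaving out any library in that fit kept the difference between -1.63 and -1.53, with no call. With the block it was called under all 5 other settings of pseudocount, filter and scaling, with limma adjusted p between 0.0132 and 0.049.

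Ifitm3 (chromosome 7, 148195489 to 148196643), the best studied restriction factor of the family, had 12.5 and 30.6 FPKM in B10+ cells and 22.9 and 101.8 FPKM in B10- cells. It was lower in B10+ cells of each culture, but the subsets overlapped because B10+ cells of culture 2 lay above B10- cells of culture 1. It differed by -1.26 ± 0.62 on the log2 scale (limma adjusted p = 0.149 with the block). Ifitm1 (chromosome 7, 148153328 to 148155726), found mainly at the cell surface, had 0.948 and 4.74 FPKM in B10+ cells and 2.64 and 7.62 FPKM in B10- cells. Its log2 difference of -0.74 ± 0.22 did not pass (limma adjusted p = 0.204 with the block). The Ifitm genes are close relatives in a single cluster, so reads that match several of them may have been shared.

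The Ifit proteins bind viral RNA and block its translation. Ifit1 (chromosome 19, 34715379 to 34724499) had 46.5 and 417 FPKM in B10+ cells, against 26.7 and 98.1 FPKM in B10- cells. It was 1.74-fold higher in B10+ cells of culture 1 and 4.25-fold higher in culture 2, and B10+ cells of culture 1 lay below B10- cells of culture 2. Ifit3 (chromosome 19, 34658019 to 34663472) had 11.5 and 77.2 FPKM in B10+ cells and 8.21 and 15.1 FPKM in B10- cells. The log2 differences were 1.43 ± 0.92 for Ifit1 and 1.36 ± 1.301 for Ifit3 (limma adjusted p = 0.199 and 0.302 with the block). Ifit2 (chromosome 19, 34625184 to 34651024) had opposite signs in the cultures. Its B10+ libraries held 11.2 and 154.5 FPKM, against 16.1 and 77.1 FPKM in B10- cells.

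**Figure D2:**
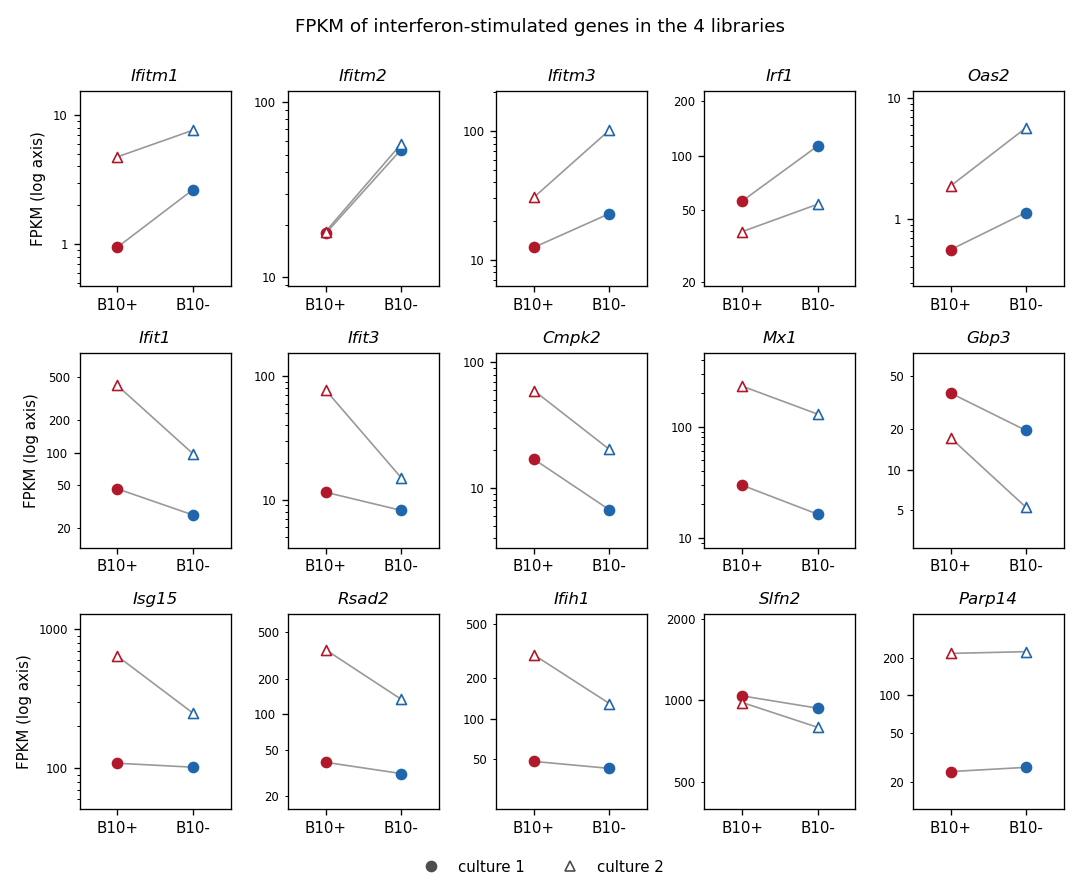
FPKM on log axes in the B10+ (red) and B10- (blue) libraries for 15 interferon-stimulated genes, with filled circles for culture 1, open triangles for culture 2 and a grey line joining the libraries of a culture. Ifitm2 has nearly the same values in both cultures, while Ifit1, Mx1 and Parp14 are far lower in culture 1 than in culture 2 in both subsets.

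Rsad2 and Cmpk2 are neighbours that are induced together, and their products act on pyrimidine nucleotides. Viperin, the product of Rsad2, turns CTP into a chain terminator for viral polymerases, and Cmpk2 is a mitochondrial nucleotide kinase. Cmpk2 (chromosome 12, 27154080 to 27164702) had 16.9 and 59.6 FPKM in B10+ cells and 6.68 and 20.2 FPKM in B10- cells. It was higher in B10+ cells by similar factors in both cultures, 2.53-fold and 2.95-fold. The log2 difference was 1.37 ± 0.21, and limma's adjusted p was 0.0583 with the block and 0.0231 with the block after quantile normalization. No other setting called Cmpk2. Rsad2 (chromosome 12, 27127608 to 27141317) had 39.0 and 352 FPKM in B10+ cells and 31.3 and 133.8 FPKM in B10- cells. On the log2 scale it differed by 0.85 ± 0.77 (limma adjusted p = 0.302 with the block). Its difference was larger in culture 2, where both subsets held more of it.

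Slfn2, a schlafen protein, was the most abundant gene of the 50 (chromosome 11, 82878614 to 82884180), with 1038 and 981 FPKM in B10+ cells and 935 and 795 FPKM in B10- cells. Both B10+ libraries lay above both B10- libraries, as they also did for Oas1a and Trim21, 3 of the 50 genes (6.0%) against 6.6% of all entries. The Slfn2 log2 difference was small, at 0.23 ± 0.11 (limma adjusted p = 0.531 with the block). Samd9l, an antiviral restriction factor, differed by 0.45 ± 0.01. The exonuclease gene Isg20 had 38.4 and 85.7 FPKM in B10+ cells and 27.5 and 92.2 FPKM in B10- cells, with opposite signs in the cultures.

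Mx1 and Mx2 encode dynamin-like GTPases that trap viral nucleocapsids, and C57BL/6 mice are known to carry a defective Mx1 allele. Mx1 (chromosome 16, 97668642 to 97684513) had 29.7 and 232 FPKM in B10+ cells and 16.3 and 129.8 FPKM in B10- cells. It was 1.83-fold and 1.79-fold higher in B10+ cells of cultures 1 and 2, a log2 difference of 0.83 ± 0.00 (limma adjusted p = 0.093 with the block). Mx2 had 17.1 and 136.5 FPKM in B10+ cells and 15.8 and 86.1 FPKM in B10- cells.

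The OAS enzymes make oligoadenylates that switch on RNase L, and their differences had no common sign. Oas2 (chromosome 5, 121180342 to 121199857) had 0.561 and 1.88 FPKM in B10+ cells and 1.14 and 5.71 FPKM in B10- cells, which is -0.84 ± 0.54 on the log2 scale (limma adjusted p = 0.256 with the block). Oas3 (chromosome 5, 121203107 to 121227668) had 9.84 and 20.5 FPKM in B10+ cells and 10.01 and 42.1 FPKM in B10- cells, so its negative difference of -0.51 ± 0.69 came from culture 2 alone. Oasl1, in mouse a brake on Irf7 translation, was the most abundant of the family (chromosome 5, 115373249 to 115387920). Its libraries held 143 and 427 FPKM in B10+ cells and 125 and 344 FPKM in B10- cells. Oas1a and Oas1g, near copies whose reads can be shared, were higher in B10+ cells in both cultures by a log2 difference of 0.43 or less, and Oasl2 had opposite signs.

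Isg15, a ubiquitin-like protein that is joined to other proteins, is attached in mouse by the ligase Herc6 and removed by Usp18. Isg15 (chromosome 4, 155573533 to 155574927) had 108.6 and 642 FPKM in B10+ cells and 101.7 and 249.8 FPKM in B10- cells. The subsets were close in culture 1, at a ratio of 1.07, and apart in culture 2, at 2.57. Its log2 difference was 0.73 ± 0.89 (limma adjusted p = 0.388 with the block). Usp18, Herc6 and Trim25, a ligase that acts on the RNA sensor RIG-I, had opposite signs in the cultures. Herc6 had 20.5 and 16.3 FPKM in B10+ cells and 23.1 and 8.19 FPKM in B10- cells.

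The list holds 7 sensors of foreign nucleic acid. In both cultures 4 were higher and 0 lower in B10+ cells, against 33.4% and 31.8% of all entries. Ifih1 (chromosome 2, 62433850 to 62484312), which encodes MDA5, a sensor of long double-stranded RNA, had 48.2 and 296.5 FPKM in B10+ cells and 42.8 and 129.3 FPKM in B10- cells. Its log2 difference was 0.68 ± 0.72 (limma adjusted p = 0.358 with the block). Ddx58 (RIG-I), Dhx58 (its relative LGP2) and Ifi203, of the family of DNA-binding PYHIN proteins, were the others with a positive difference in both cultures. Zbp1, a sensor of Z-form nucleic acid and the most abundant of these genes (chromosome 2, 173032114 to 173044423), had 104.5 and 245 FPKM in B10+ cells and 74.7 and 248 FPKM in B10- cells. Like Zbp1, Eif2ak2 (PKR, which halts translation on double-stranded RNA) and Ifi204 were higher in B10+ cells of culture 1 and level or lower in culture 2. Ifi203 and Ifi204 belong to a cluster of close relatives.

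The transcription factors of the list had differences of both signs. Irf1 (chromosome 11, 53583516 to 53591876), a factor induced by interferon gamma and by NF-kB signals, had 56.3 and 38.1 FPKM in B10+ cells and 113.4 and 54.0 FPKM in B10- cells. It was lower in B10+ cells in both cultures, although B10+ cells of culture 1 overlapped B10- cells of culture 2. The log2 difference was -0.74 ± 0.36 (limma adjusted p = 0.2 with the block). Irf7, the amplifier of type I interferon production (chromosome 7, 148449082 to 148452323), had 76.1 and 151.7 FPKM in B10+ cells and 70.9 and 150.8 FPKM in B10- cells. For Irf9, a DNA-binding partner of STAT proteins, the values were 66.5 and 82.5 FPKM in B10+ cells and 72.4 and 88.0 FPKM in B10- cells. The log2 differences of Irf7 and Irf9 were 0.05 ± 0.07 and -0.11 ± 0.02.

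The interferon-inducible GTPases attack the vacuoles of intracellular pathogens. Higher in B10+ cells in both cultures were 5 of the 6, against 33.4% of all entries. Gbp3 (chromosome 3, 142223016 to 142236176) had 37.3 and 17.3 FPKM in B10+ cells and 19.6 and 5.22 FPKM in B10- cells, which is 1.90-fold and 3.31-fold higher in B10+ cells of cultures 1 and 2. The Gbp3 log2 difference was 1.23 ± 0.47 (limma adjusted p = 0.123 with the block). Its neighbour Gbp2 (chromosome 3, 142283627 to 142300972) had 58.1 and 18.7 FPKM in B10+ cells and 56.7 and 6.96 FPKM in B10- cells. The Gbp2 difference of 0.67 ± 0.90 rested on culture 2 (limma adjusted p = 0.422 with the block). Irgm1, Igtp and Ifi47, of the immunity-related GTPases, differed by 0.44 ± 0.17, 0.33 ± 0.05 and 0.25 ± 0.13. Irgm1, a regulator of the others, and Ifi47 were the most abundant of the group. Irgm1 had 182.6 and 308.8 FPKM in B10+ cells and 145.8 and 209.6 FPKM in B10- cells. Ifi47 (chromosome 11, 48900557 to 48910473) had 119.6 and 333.5 FPKM in B10+ cells and 94.3 and 299.3 FPKM in B10- cells, and its locus lies wholly within that of the olfactory receptor entry Olfr56. Irgm2 had opposite signs.

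Parp9, with its partner Dtx3l, and Parp14 modify proteins with ADP-ribose and act on interferon signalling. Parp14 (chromosome 16, 35832964 to 35871468) had 24.4 and 217.6 FPKM in B10+ cells and 26.4 and 224.7 FPKM in B10- cells, a difference of -0.08 ± 0.04 that lay within 0.01 of 0 after quantile normalization. Dtx3l was higher in B10+ cells in both cultures, by 0.45 ± 0.19, while Parp9 and Parp12 had opposite signs. The loci of Parp9 and Dtx3l overlap by 558 bp. Of the remaining genes, Trim21, Tor3a, Xaf1 and Ifi44 were higher in B10+ cells in both cultures and Rtp4 was lower in both. Trim30a, the most abundant of these (chromosome 7, 111557540 to 111613707), had 124.9 and 369.6 FPKM in B10+ cells and 95.8 and 409 FPKM in B10- cells. Ifi35 differed by 0.05 in culture 1 and by -0.13 in culture 2.

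The differences of the 50 genes in culture 1 and in culture 2 correlated across genes (Pearson's r 0.54, Spearman's rho 0.30), against 0.51 and 0.45 over all 10367 entries. Genes are not independent replicates, and these values describe the 4 libraries. They were alike in the cultures for some genes and far apart for others. Ifitm1, Ifitm2, Ifitm3 and Irf1 had differences at or below -0.49 in both. Ifit3, Isg15, Gbp2, Rsad2 and Ifih1 had differences above 1 in culture 2 and at or below 0.44 in culture 1.

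**Figure D3:**
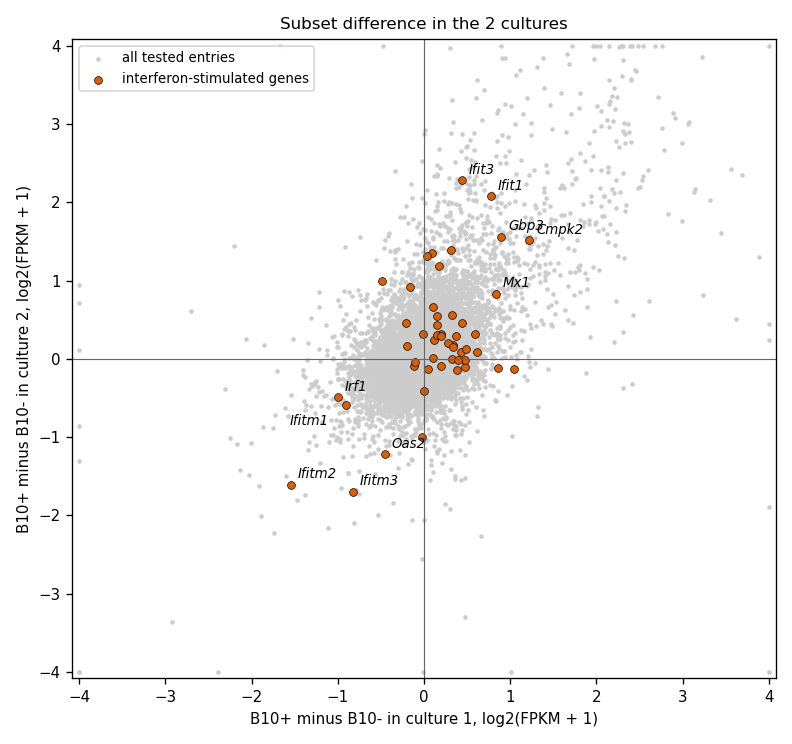
B10+ minus B10- difference of log2(FPKM + 1) in culture 1 (horizontal) and culture 2 (vertical) for all tested entries (grey) and the 50 interferon-stimulated genes (orange), with 32 entries beyond the axes drawn at the edge. Ifitm2 and Ifitm3 lie at the lower left of the genes, Cmpk2, Gbp3 and Ifit1 at the upper right.

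These genes also differed between the cultures, and most of them in the same direction. In both subsets, 44 of the 50 (88.0%) were lower in culture 1 than in culture 2, against 33.1% of all tested entries. The median log2 difference, culture 1 minus culture 2, was -1.18 in B10+ cells and -1.35 in B10- cells, while over all entries it was 0.28 and 0.32. The summed level of the 50 genes was 3008 FPKM in B10+ cells of culture 1 and 6951 FPKM in those of culture 2, and 2688 and 5228 FPKM in B10- cells. Each culture has 1 library per subset, so no test of this difference within a subset was made.

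Parp14, Mx1, Trim25, Ifit1, Ifit2, Rsad2 and Mx2 had the lowest culture 1 values relative to culture 2, by the mean of both subsets. For Parp14 the log2 difference was -3.11 in B10+ cells and -3.04 in B10- cells, and for Mx1 it was -2.93 and -2.92. For Ifit2 it was -3.68 and -2.19. The opposite was seen for 5 genes that were higher in culture 1 in both subsets, against 56.3% of all entries. These were Gbp2, Gbp3, Irf1, Herc6 and Slfn2. Gbp2 differed by 1.58 in B10+ cells and by 2.86 in B10- cells. Ifitm2 was level between the cultures, at -0.03 and -0.10.

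**Figure D4:**
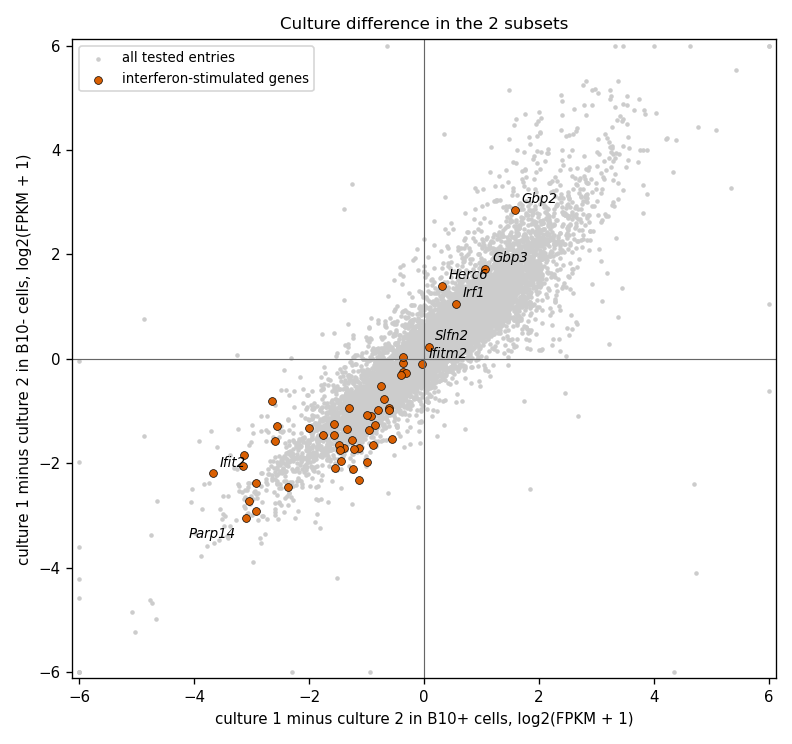
Culture 1 minus culture 2 difference of log2(FPKM + 1) in B10+ cells (horizontal) and B10- cells (vertical) for all tested entries (grey) and the 50 interferon-stimulated genes (orange), with 21 entries beyond the axes drawn at the edge. Of the 50 genes, 44 lie at the lower left, below 0 in both subsets, and Gbp2, Gbp3, Irf1, Herc6 and Slfn2 lie at the upper right.

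Upstream of these genes, Ifng was higher in B10+ cells in both cultures, and the 4 tested Ifna genes differed more between the cultures than between the subsets. Among those Ifna genes, Ifna2 and Ifna5 passed the filter through culture 2 alone. Of 21 listed interferon genes, 19 were in the table and 6 passed the filter. Ifng (chromosome 10, 117878103 to 117882948) had 3.51 and 5.36 FPKM in B10+ cells and 0.253 and 0.972 FPKM in B10- cells, with no overlap of the subsets. Its log2 difference was 1.77 ± 0.11 (limma adjusted p = 0.0395 with the block and 0.99999 without it). Ifng reached 1 FPKM only in the B10+ libraries and so passed the filter through the subset in which it was higher, and its call is no support for a change. With the block, that call was lost at a pseudocount of 0.1 and without the filter (limma adjusted p = 0.0791 and 0.0819). T cells are a main source of Ifng. Both subsets were gated as B cells. The T cell genes given above were higher in sum in the B10+ libraries of both cultures, most of that sum from Cd2 and Lck. Lck had opposite signs in the cultures, at 7.93 and 6.57 FPKM in B10+ cells and 10.1 and 3.42 FPKM in B10- cells. The part of T cells in the Ifng values was not tested.

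Ifnb1 (chromosome 4, 88167929 to 88168698) had 1.88 and 12.8 FPKM in B10+ cells and 0.931 and 1.94 FPKM in B10- cells. Its log2 difference was 1.40 ± 1.17 (limma adjusted p = 0.273 with the block). It was higher in B10+ cells in each culture, by 2.01-fold and 6.59-fold. Ifna4 (chromosome 4, 88487720 to 88488363), the most abundant Ifna gene, had 3.37 and 116.3 FPKM in B10+ cells and 4.22 and 53.4 FPKM in B10- cells. All 6 tested interferon genes were lower in culture 1 in both subsets, against 33.1% of all entries. Ifna2 and Ifna5 reached 1 FPKM only in culture 2, so they passed the filter through the culture in which they were higher. For them this direction was set by the filter. Ifna1, Ifna2, Ifna4 and Ifna5 are close copies, so their single values are uncertain.

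Of 6 interferon receptor genes 5 were tested and 0 were called in either direction with the block, against 0.781% of all entries called higher and 0.0772% called lower, so that a count of 0 in so short a list is near the background. The type I receptor chain Ifnar2 had 35.9 and 21.6 FPKM in B10+ cells and 33.8 and 20.9 FPKM in B10- cells. Ifngr1 and Ifngr2 differed by -0.29 ± 0.44 and -0.15 ± 0.00 (limma adjusted p = 0.547 and 0.611 with the block). Both B10+ libraries of Ifngr2 lay below both B10- libraries, as for 7.47% of all entries. Ifnar1 and Il10rb differed by -0.17 ± 0.71 and 0.11 ± 0.31 (limma adjusted p = 0.805 and 0.787 with the block). Ifngr1, Ifnar1 and Il10rb had opposite signs in the cultures. Of the 4 JAK and STAT genes read, 2 were higher and 2 lower in B10+ cells in both cultures, and 0 were called with the block, against the same shares of all entries. Stat2, which joins the complex of type I interferons, had 4.78 and 39.6 FPKM in B10+ cells and 5.25 and 40.7 FPKM in B10- cells, lower in culture 1 in both subsets. The kinase Tyk2 was higher and Jak1 lower in B10+ cells in both cultures, with log2 differences of 0.70 ± 0.08 and -0.53 ± 0.02 (limma adjusted p = 0.201 and 0.198 with the block), and Jak2 differed by 0.26 ± 0.10.

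**Figure D5:**
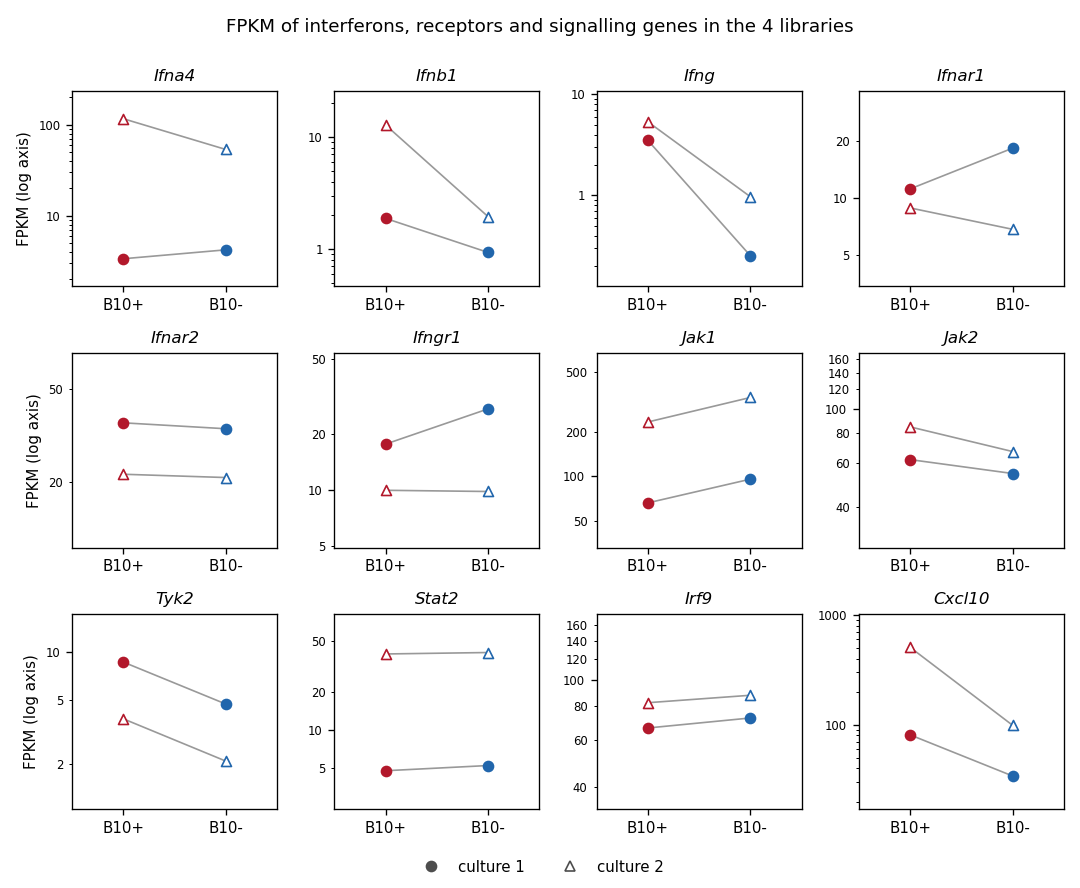
FPKM on log axes in the B10+ (red) and B10- (blue) libraries for interferon, receptor and signalling genes, with Cxcl10 as an interferon-induced chemokine; filled circles are culture 1, open triangles culture 2, and grey lines join the libraries of a culture. Ifng is higher in B10+ cells in both cultures without overlap, while Stat2 and Ifna4 lie far lower in culture 1 than in culture 2.

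Among 10 genes that restrain interferon signalling, 0 were called with the block (0.781% of all entries higher, 0.0772% lower). In both cultures 0 were higher and 5 lower in B10+ cells, against 33.4% and 31.8% of all entries. Socs3 and Ptpn1, an inhibitor of cytokine receptors and a phosphatase of JAK kinases, had log2 differences of -0.63 ± 0.23 and -0.54 ± 0.59 (limma adjusted p = 0.198 and 0.383 with the block), and Pias1 and Foxo3 of -0.31 ± 0.01 and -0.29 ± 0.37. Of 19 genes that lead to interferon production, 17 were tested, 7 were higher and 3 lower in both cultures, and 0 were called, against the same shares. Irf8, a factor of B cells and dendritic cells, had 207.8 and 174.9 FPKM in B10+ cells and 332.6 and 312.1 FPKM in B10- cells. Irf8 and Irf5 differed by -0.75 ± 0.11 and 0.79 ± 0.40 (limma adjusted p = 0.123 and 0.198 with the block). The LPS receptor Tlr4 and the Toll-like receptor adaptor Myd88 differed by 0.74 ± 0.53 and -0.52 ± 0.27 (limma adjusted p = 0.283 and 0.298 with the block). Tlr4 was low, at 3.75 and 0.734 FPKM in B10+ cells and 1.18 and 0.346 FPKM in B10- cells, and reached 1 FPKM only in culture 1.

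A further list named 62 interferon-induced genes outside the 50, Stat2 and Tlr3 among them. Of these 58 were matched by symbol and 53 were tested, 25 (47.2%) were higher and 9 (17.0%) lower in both cultures, against 33.4% and 31.8% of all entries, and 19 had mixed signs, with a median log2 difference of 0.14. With limma and the block, 0 were called in either direction, against 0.781% of all entries higher and 0.0772% lower. At an unadjusted p under 0.05, 8 (15.1%) were higher and 3 (5.66%) lower, against 10.5% and 4.66% of all entries. Mlkl, the executioner of necroptosis, had 10.5 and 18.7 FPKM in B10+ cells and 2.78 and 3.21 FPKM in B10- cells, with no overlap of the subsets. Its log2 difference was 1.91 ± 0.44 (limma adjusted p = 0.0581 with the block, and 0.0165 after quantile normalization). Under the other settings with the block, limma's adjusted p for Mlkl lay between 0.0622 and 0.0951. Ms4a4c, a tetraspan membrane protein, was lower, at 118.6 and 231.5 FPKM in B10+ cells against 234.3 and 473.8 FPKM in B10- cells. On the log2 scale Ms4a4c differed by -1.003 ± 0.04 (limma adjusted p = 0.0687 with the block). Ifi205, a relative of Ifi203 and Ifi204, differed by 0.93 ± 0.05 (limma adjusted p = 0.0851 with the block, and 0.0473 after quantile normalization). For Ifi205 the other settings with the block gave limma adjusted p between 0.0891 and 0.116. The chemokine Cxcl10, which draws activated T cells, had 80.9 and 507.7 FPKM in B10+ cells and 34.2 and 99.0 FPKM in B10- cells, and its difference of 1.78 ± 0.80 did not pass (limma adjusted p = 0.111 with the block). Lower in culture 1 in both subsets were 38 of the 53 (71.7%), against 33.1% of all entries.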

How the data were processed

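Total RNA was extracted with Trizol, ribosomal RNA was depleted with Ribo-Zero and Illumina libraries were made, per the labels' protocols. The authors deposited 1 table of FPKM values with a column per library. The build mm9 and the tools DESeq, bcl2fastq 1.8.4, Cufflinks 2.1.1 and TopHat 1.3.2 appear, without roles, in the submitters' processing notes. What annotation was used, and whether strand was, is not given in the sources used here. As shares of a library, FPKM of all genes shift when a few RNAs take more of it. Starts were raised by 1, since the table counts from 0.

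Entries with at least 1 FPKM in at least 2 libraries were tested as log2(FPKM + 1) with limma-trend (limma 3.58.1, R 4.3.3; two-sided), and p-values were adjusted by Benjamini-Hochberg over 10367 entries. The design set before the tests had no culture term, and the culture as a replicate block was fitted too. By the labels, libraries pair by culture, and deviations from the subset means correlated at 0.865 within a culture. The procedure was tested on simulated data. Replicates are separate cultures, and the labels used here do not give the mice per culture. Read depth is unknown.

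The genes and lists were chosen with earlier results of these data known. Values are given for genes called in either fit, for genes with 1 sign in both cultures and a mean log2 difference of at least 0.5, and for the most abundant gene of each role. Of pathway lists, called genes and up to 4 with the smallest blocked p are named. Other values were chosen after they were seen, and so was Cxcl10, which also meets the rule for pathway lists. Some results are not reported here. Alternatives were the pseudocount, the filter, quantile and upper-quartile scaling, and leaving out each library.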

Additional observations from a re-analysis of the deposited data

How the results depend on the processing

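The call of Ifitm2 rests on the culture term. With the replicate block, 81 entries were called higher and 8 lower, 1 of the 50 genes among the lower ones, against 0 entries and 0 of the 50 without it. With the block, the counts were 53 and 7 at a pseudocount of 0.1, 40 and 5 without the filter, 62 and 9 with at least 5 FPKM in 2 libraries, 74 and 8 after upper-quartile scaling, and 167 and 23 after quantile normalization. Ifitm2 was called in each of these, and Cmpk2 was called higher after quantile normalization, 1 of the 50 genes. Without the block a pseudocount of 0.1 gave 1 lower entry, none of the 50. Leaving out 1 library gave 1 to 130 higher and 3 to 14 lower entries, the most without B10- replicate 1, and 0 of the 50 genes; the lone library of a subset is then assumed to vary like the other subset. With the block added, no residual degree of freedom would remain, so that fit was not made.

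The median log2 difference of the 50 genes was 0.25 at a pseudocount of 0.1, 0.26 with at least 5 FPKM (46 genes), 0.26 after quantile normalization and 0.24 after upper-quartile scaling, with or without the block, and between -0.46 and 0.81 with 1 library left out. The number higher in both cultures was 25 to 29 and the number lower 7 to 9. Parp14 turned to 0.0033 after quantile normalization. Leave-one-out ranges that cross 0 were -0.14 to 2.996 for Ifit1, -1.52 to 0.036 for Ifitm1, -1.50 to 0.47 for Oas3, -0.53 to 1.04 for Oasl1, -0.63 to 2.30 for Mx1, -0.55 to 2.002 for Isg15, -0.72 to 2.42 for Rsad2, -0.62 to 1.98 for Ifih1, -0.63 to 1.09 for Zbp1, -0.48 to 0.59 for Irf7, -0.58 to 1.08 for Ifi47, -0.76 to 2.1003 for Gbp2, -1.63 to 1.48 for Parp14 and -0.92 to 1.16 for Trim30a. In these fits the culture difference enters by construction. Depth is unknown, and 2 cultures limit the precision.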
